A study of Arabidopsis thaliana with 12 samples.

Results

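The genes that make, move and break down glucosinolates are described here as 39 loci, chosen by identifier and grouped by role: 6 MYB regulators, 6 genes of methionine chain elongation, 15 of core synthesis, 3 of side chain modification, 2 transporters and 7 of breakdown. Of the 23071 named genes in the table, 38 were among the 39, and all 38 passed the filter on low counts. *AOP3* (AT4G03050), a side chain gene, was not analysed here. The 31 regulators, enzymes and transporters measured are called the synthesis genes below, and they are set against *TGG1* and *TGG2*.

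Glucosinolates are the sulfur-rich defence compounds of mustard plants, built from methionine (the aliphatic branch) or tryptophan (the indolic branch). They are harmless until a wound brings them together with myrosinase, a thioglucosidase that removes their glucose and starts the release of isothiocyanates, nitriles and related products. The myrosinases *TGG1* and *TGG2* are stored in guard cells and in myrosin cells, idioblasts along the veins, and FAMA, the bHLH transcription factor that acts after MUTE in the stomatal lineage, is known to be needed for both kinds of cell.

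RNA came from whole seedlings of *Arabidopsis thaliana*, 50 to a library and harvested 2 days post-germination without treatment, with 3 libraries for each of 4 lines. Every line was in the mute-3 mutant background and carried a *MUTE* transgene under the *MUTE* promoter. The MUTE line (line 1) had the wild-type protein and served as the reference. MUTEv5#2 and MUTEv5#5 carried the R10W substitution, and the labels describe moderate stomatal clustering in the former and severe lineage arrest in the latter. MUTEPPP#3 carried H3P, E7P and R11P. The reference and the MUTEPPP allele were each 1 transgenic line, so that an effect of the line and one of the allele cannot be told apart, and the 3 comparisons with MUTE share its libraries.

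Library totals ran from 117868477 to 152600239 counts, and the lowest count of a member in any library was 7 (*MYB76*). Levels are in CPM, a gene's counts in every 1000000 of the scaled library total, and a gene is called where the adjusted p of edgeR's quasi-likelihood test over 22636 genes was under 0.05. *MUTE* (AT3G06120), whose count joins transgene and mutant locus, stood between 4.85 and 6.10 CPM in MUTE, 8.26 and 12.9 in MUTEv5#2, 14.4 and 24.5 in MUTEv5#5 and 5.32 and 6.93 in MUTEPPP#3. Of all genes tested, 5.04% were called in MUTEv5#2 against MUTE, 1.04% in MUTEv5#5 and 24.6% in MUTEPPP#3. Phloem genes (5 genes, summed 232 to 304 CPM) were present in all 12 libraries, as were 7 photosynthesis genes of green tissue, whose sums were 60220 to 67540 CPM in MUTE and 47630 to 59520 in the variant lines. Organelle and ribosomal RNA genes took 0.397 to 1.28% of the counts in MUTE, 1.10 to 2.92% in MUTEv5#2 and 0.575 to 2.12% in the other libraries.

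*TGG1* (AT5G26000, chromosome 5, 9079452 to 9082384, minus strand) and *TGG2* (AT5G25980, chromosome 5, 9072708 to 9075777, plus strand) lie 3674 bases apart with their 3' ends facing each other and 2 other genes between them. The 250 bases before each start are shown because both genes were called lower than MUTE in both MUTEv5 lines. FAMA, like MUTE, belongs to the bHLH class known to bind the E-box, whose letters are CANNTG. Both sequences are from the RefSeq TAIR10.1 genome and are written 5′ to 3′ on the gene's own strand, with each E-box in capitals. The *TGG1* window is chr5:9082385-9082634 and the *TGG2* window is chr5:9072458-9072707.
TGG1: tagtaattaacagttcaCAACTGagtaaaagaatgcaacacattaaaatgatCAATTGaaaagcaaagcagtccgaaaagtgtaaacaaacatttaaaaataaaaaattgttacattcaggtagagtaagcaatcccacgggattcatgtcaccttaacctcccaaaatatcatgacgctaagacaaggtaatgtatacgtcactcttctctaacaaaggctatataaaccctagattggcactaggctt
TGG2: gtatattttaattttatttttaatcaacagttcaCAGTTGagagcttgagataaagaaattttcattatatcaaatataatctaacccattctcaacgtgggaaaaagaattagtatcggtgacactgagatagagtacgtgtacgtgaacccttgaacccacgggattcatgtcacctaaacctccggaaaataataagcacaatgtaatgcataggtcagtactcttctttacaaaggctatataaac

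The windows share an unbroken run of 21 bases, cccacgggattcatgtcacct, which lies 116 to 96 bases before the *TGG1* start and 92 to 72 before that of *TGG2*. A second shared run of 17 bases, acaaaggctatataaac, holds the letters of a TATA box and lies 37 to 21 bases before *TGG1* and 17 to 1 before *TGG2*. Among 27443 windows of the same length before gene starts, each run was found in 2, those of *TGG1* and *TGG2* from which it was taken. Words of 17 or 21 bases would seldom recur by chance, so this count was largely fixed in advance. An E-box, whose pattern CANNTG matches both strands at the same place, was present 2 times before *TGG1* and 1 time before *TGG2*. Of all windows, 55.3% held at least 1. The letters are therefore common, and of the 32 synthesis loci 19 (59.4%) held one. The G-box CACGTG, an E-box that MYC factors are known to bind, was in 3 of the 32 (9.38%) and in 6.49% of all windows. These matches describe letters and not binding.

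*TGG1* and *TGG2* fell below MUTE in both MUTEv5 lines and were higher in MUTEPPP#3 than in either MUTEv5 line. *TGG1* stood at 1237, 1268 and 1109 CPM in the MUTE libraries, 518, 448 and 498 in MUTEv5#2, 439, 487 and 315 in MUTEv5#5, and 940, 1057 and 936 in MUTEPPP#3. The MUTEv5 libraries lay below all others, those of the MUTEv5 lines overlapped, and all 3 of MUTEPPP#3 lay between them and MUTE. *TGG2* stood at 84.0, 93.6 and 80.2 CPM in MUTE, 43.9, 41.0 and 35.8 in MUTEv5#2, 45.5, 53.7 and 47.9 in MUTEv5#5, and 60.8, 77.8 and 68.3 in MUTEPPP#3. No MUTEv5 library of either gene reached a MUTE or MUTEPPP#3 library. In MUTEv5#2 *TGG1* fell to 0.405 of its MUTE level (95% interval 0.324 to 0.507, edgeR adjusted p = 0.00274) and *TGG2* to 0.468 (0.392 to 0.559, adjusted p = 0.00174). In MUTEv5#5 *TGG1* fell to 0.343 (0.274 to 0.430, adjusted p = 6.91e-04) and *TGG2* to 0.570 (0.478 to 0.681, adjusted p = 0.0115). The MUTEv5#5 call of *TGG2* was lost without MUTE replicate 2 (log2 fold change -0.75, adjusted p = 0.0586) or MUTEv5#5 replicate 3 (-0.80, adjusted p = 0.0646). In RNA of whole seedlings, fewer cells of a type and less RNA per cell cannot be told apart.

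The MUTEPPP#3 libraries were below all MUTE libraries for both genes, but neither gene passed the test there. The ratio to MUTE was 0.811 for *TGG1* (95% interval 0.651 to 1.01, edgeR adjusted p = 0.149) and 0.802 for *TGG2* (0.673 to 0.956, adjusted p = 0.0660). Against MUTEv5#2, MUTEPPP#3 was higher by a log2 fold change of 1.00 for *TGG1* (SE 0.146, adjusted p = 0.0113) and 0.78 for *TGG2* (SE 0.116, adjusted p = 0.0122). Both of these calls were lost without MUTEv5#2 replicate 2 (0.95 and 0.79) or MUTEPPP#3 replicate 2 (0.94 and 0.68), and that of *TGG2* also when the fit held the compared groups alone (0.80). Against MUTEv5#5 the differences were 1.24 (SE 0.146, adjusted p = 0.00133) and 0.49 (SE 0.115, adjusted p = 0.0185). The *TGG2* call was lost without MUTEv5#5 replicate 1 (0.44) or 3 (0.50) or MUTEPPP#3 replicate 2 (0.40), and when the fit held the compared groups alone (0.50).

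**Figure D1:**
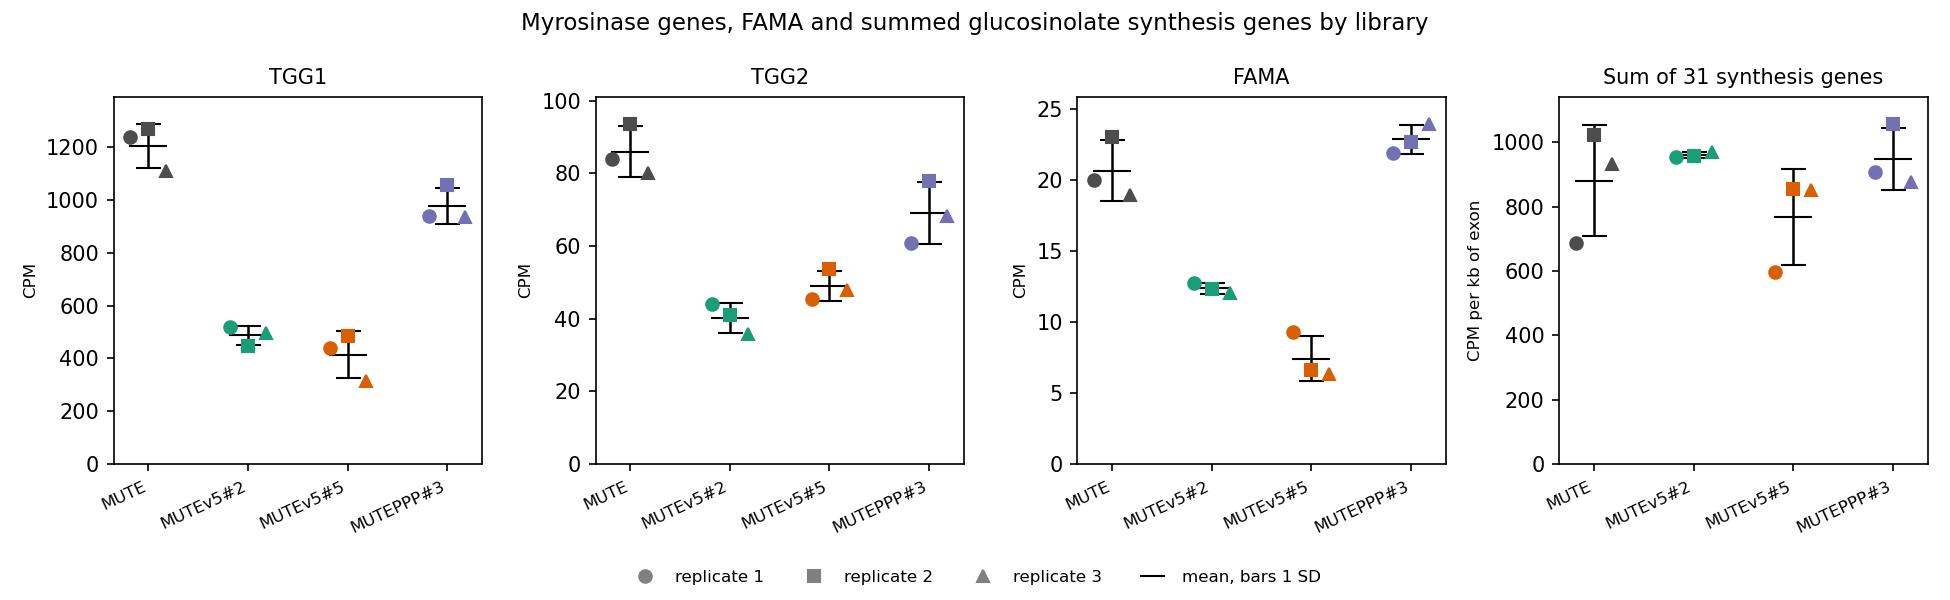
Levels in each library of *TGG1*, *TGG2* and *FAMA* in CPM and of the 31 synthesis genes summed in CPM per kb of exon; marker shape gives the replicate, horizontal lines the mean and bars 1 SD (n = 3). The MUTEv5 libraries lie lowest for the 3 single genes, with *TGG1* at 315 to 518 CPM, while the synthesis sums of all variant lines overlap with that of MUTE.

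Between the MUTEv5 lines the genes differed in opposite directions, and neither difference passed the test. For MUTEv5#5 over MUTEv5#2, *TGG1* had a log2 fold change of -0.24 (95% interval -0.56 to 0.08, adjusted p = 0.585), and *TGG2* one of 0.28 (0.03 to 0.54, adjusted p = 0.416). Per kb of exon, *TGG1* was 14.1 to 15.3 times as abundant as *TGG2* in MUTE and 14.1 to 16.1 times in MUTEPPP#3. The ratio was 11.4 to 14.5 in MUTEv5#2 and 6.85 to 10.03 in MUTEv5#5, so that the MUTEv5#5 libraries had the lowest ratios. Of the 50-base stretches of their exons, 0.455% for *TGG1* and 0.430% for *TGG2* occur elsewhere in the genome, and they share none with each other.

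*FAMA* (AT3G24140) was measured beside them. It stood at 20.0, 23.0 and 18.9 CPM in MUTE, 12.8, 12.3 and 12.01 in MUTEv5#2, 9.26, 6.64 and 6.36 in MUTEv5#5 and 21.9, 22.7 and 23.9 in MUTEPPP#3. The order of the lines is that of *TGG1* except that MUTEPPP#3 was not below MUTE. Its log2 fold change over MUTE was -0.74 (adjusted p = 0.0202) in MUTEv5#2, -1.48 (adjusted p = 5.48e-04) in MUTEv5#5 and 0.14 (adjusted p = 0.461) in MUTEPPP#3.

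A list of 12 guard cell genes, *FAMA* included and the myrosinases left out, had 8 members called lower in MUTEv5#2 and 7 in MUTEv5#5. In MUTEPPP#3, 2 were called lower and 1 higher. The shares of all genes called were 5.04%, 1.04% and 24.6% in the same order. The MUTEPPP#3 calls, 3 of 12, were thus a share near that of all genes. Those of the MUTEv5 lines were well above it. The list was chosen with earlier results of these data known, so these shares describe it and are no independent test. The list's median log2 fold changes were -0.814, -0.999 and -0.157, beside medians of all genes tested of -0.00, -0.01 and -0.00. Summed, the list gave 151 to 183 CPM in MUTE, 95.1 to 114 in MUTEv5#2, 81.8 to 119 in MUTEv5#5 and 133 to 157 in MUTEPPP#3. The ion channel genes *ALMT12* (-1.33 and -1.46) and *SLAC1* (-0.58 and -1.44) were among those called lower in both MUTEv5 lines. Without 1 library the MUTEv5#2 count was 4 (MUTE replicate 1 left out), 3 (MUTE replicate 2) or 2 (MUTEv5#2 replicate 1 or 2), and the MUTEv5#5 count was 3 (MUTE replicate 2 or MUTEv5#5 replicate 3) or 4 (MUTE replicate 3). None of 5 phloem genes was called by edgeR in either MUTEv5 line, where unadjusted p were under 0.05 for 2 of them in MUTEv5#2, *SUC2* and *AHA3*. All 7 photosynthesis genes had log2 fold changes below 0 in both MUTEv5 lines, with medians of -0.40 in MUTEv5#2 and -0.24 in MUTEv5#5. None was called by edgeR, and unadjusted p were under 0.05 for 5 of them in MUTEv5#2 and 1 in MUTEv5#5. Their summed level was 0.791 and 0.886 of that of MUTE, beside 0.623 and 0.551 for the guard cell list. The part of either list's difference in that of *TGG1* and *TGG2* was not tested, and no list of myrosin cell genes was used here.

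Each library's *TGG1* and *TGG2* levels, summed per kb, were set against its 31 synthesis genes, summed in the same way. The myrosinase sum was 627 to 717 CPM per kb in MUTE, 258 to 296 in MUTEv5#2, 191 to 284 in MUTEv5#5 and 527 to 598 in MUTEPPP#3. The synthesis sum was 688, 1022 and 932 in MUTE, 955, 958 and 971 in MUTEv5#2, 597, 855 and 852 in MUTEv5#5, and 910, 1058 and 876 in MUTEPPP#3. The mean of the myrosinase sum over that of MUTE was thus 0.409, 0.358 and 0.811 in MUTEv5#2, MUTEv5#5 and MUTEPPP#3, and that of the synthesis sum was 1.091, 0.872 and 1.076. The low synthesis sum of MUTE replicate 1, at 688, enters these last ratios. In the same order, the aliphatic sum was at 1.109, 0.917 and 1.198 of MUTE and the indolic sum at 1.107, 0.767 and 0.960. Genes of both branches were at 1.027, 0.862 and 0.871, and every variant line overlapped with MUTE in each branch sum. The mean synthesis sums of MUTEv5#2 (961) and MUTEPPP#3 (948) lay between those of MUTE replicates 3 and 2. The ratio of myrosinases to synthesis genes was 0.673 to 1.01 in MUTE, 0.269 to 0.310 in MUTEv5#2, 0.224 to 0.428 in MUTEv5#5 and 0.565 to 0.604 in MUTEPPP#3. No MUTEv5 library reached a library of the other lines in this ratio.

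In MUTEv5#2 against MUTE, 3 of 38 members were called, 1 higher and 2 lower, beside a background of 1.48% of all genes higher and 3.55% lower. In MUTEv5#5 the calls were *TGG1* and *TGG2*, both lower, beside backgrounds of 0.314% higher and 0.725% lower. None of the 31 synthesis genes was called in MUTEv5#5, where 3 of them had an unadjusted p under 0.05 in the edgeR test, *MAM3* with a higher level and *CYP79B3* and *GGP1* with lower ones. In MUTEPPP#3 4 of 38 were called, 2 higher and 2 lower, all of them synthesis genes, beside 10.7% higher and 13.9% lower. With library totals as the only scaling, the median of all genes shifted by 0.127 in MUTEv5#2 and 0.167 in MUTEPPP#3 on the log2 scale, and the genes called higher and lower were 1001 and 400 in place of 336 and 804, and 4789 and 1862 in place of 2428 and 3149. In MUTEv5#5 they were 63 and 66 in place of 71 and 164. The median log2 fold change of the synthesis genes was 0.22 in MUTEv5#2 with 21 of 31 above 0, -0.09 in MUTEv5#5 with 7 above 0, and 0.02 in MUTEPPP#3 with 17 above 0.

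**Figure D2:**
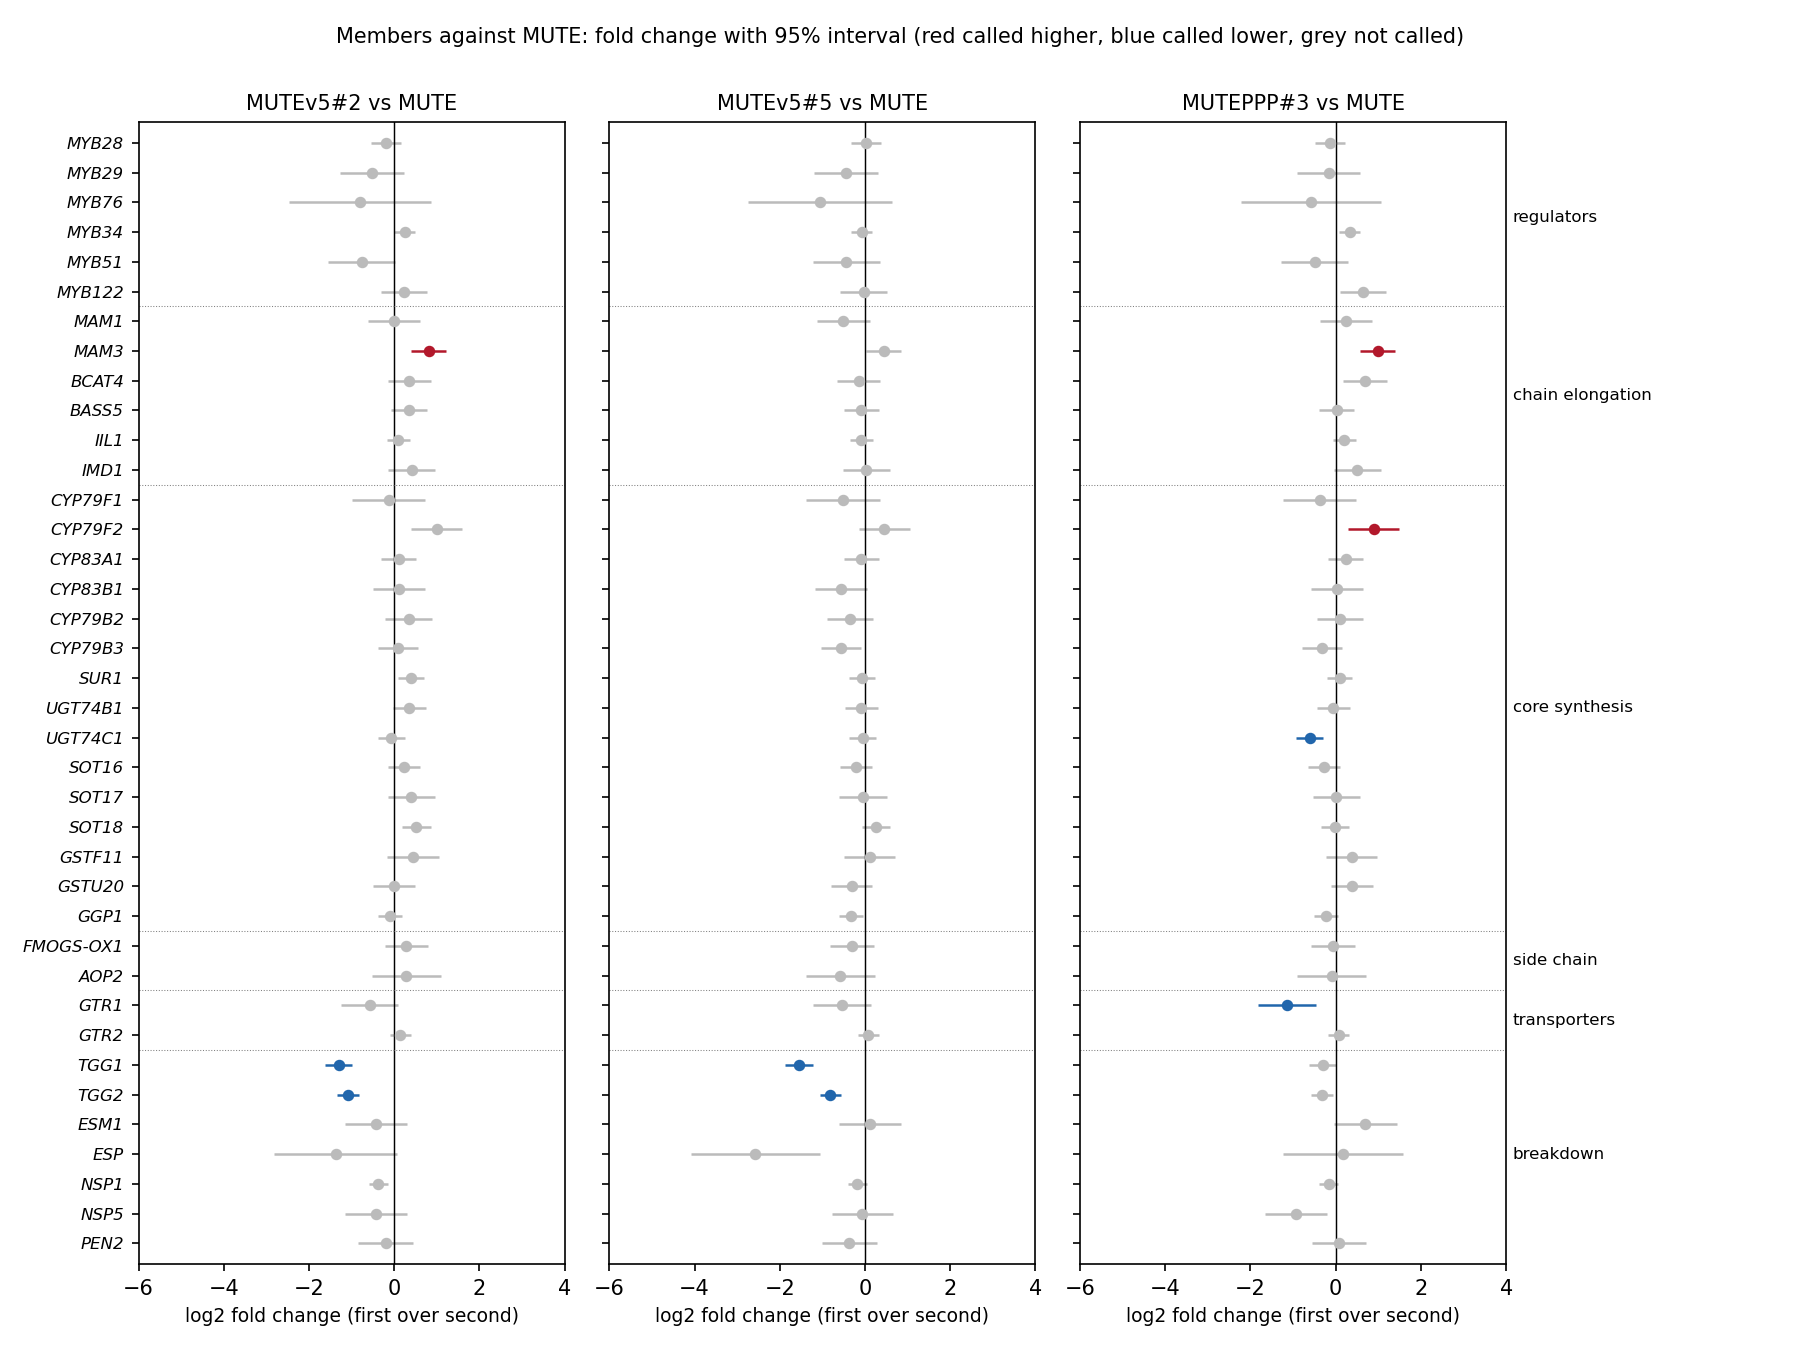
Log2 fold change over MUTE of each of the 38 measured members in the 3 variant lines, with 95% intervals from the edgeR fit of 12 libraries and members grouped by role. Red marks genes called higher, blue genes called lower and grey genes not called; *TGG1* and *TGG2* are blue in both MUTEv5 panels and grey in that of MUTEPPP#3.

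None of the 6 MYB regulators was called against MUTE by edgeR. At an unadjusted p under 0.05 there were 2, *MYB34* and *MYB122*, both in MUTEPPP#3, and DESeq2 called these there. *MYB28*, *MYB29* and *MYB76* direct aliphatic synthesis and *MYB34*, *MYB51* and *MYB122* indolic synthesis. *MYB34* (AT5G60890), the most abundant regulator per kb, stood at 38.5, 40.6 and 41.9 CPM in MUTE, 46.0, 50.7 and 46.2 in MUTEv5#2, 35.0, 38.7 and 40.9 in MUTEv5#5 and 48.2, 60.0 and 43.8 in MUTEPPP#3. All libraries of MUTEv5#2 and MUTEPPP#3 lay above those of MUTE and MUTEv5#5. *MYB34* was called in MUTEPPP#3 against MUTEv5#5 (log2 fold change 0.41, SE 0.113, adjusted p = 0.0356) and not against MUTE (0.33, adjusted p = 0.0547). The call was lost without MUTEv5#2 replicate 1 (0.41), any single MUTEv5#5 library (0.35 to 0.49) or MUTEPPP#3 replicate 2 (0.27), and when the fit held the compared groups alone (0.42). *MYB28*, the main aliphatic regulator, differed from MUTE by -0.19 to 0.02, with intervals that reach no further than -0.54 and 0.37. *MYB51* had medians between 10.7 and 19.9 CPM in the 4 lines, fold changes of -0.76 to -0.44 and adjusted p from 0.235 to 0.593.

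Chain elongation adds carbon to methionine before the core pathway. *MAM3* (AT5G23020, chromosome 5, 7718118 to 7721866, plus strand), a methylthioalkylmalate synthase that also makes the longest chains, stood at 17.5, 34.5 and 30.8 CPM in MUTE. It was at 50.2, 48.3 and 46.0 in MUTEv5#2, 36.4, 39.05 and 36.8 in MUTEv5#5 and 53.8, 56.0 and 53.5 in MUTEPPP#3. Every library of the variant lines lay above every MUTE library. *MAM3* rose by 0.80 on the log2 scale in MUTEv5#2 (SE 0.189, edgeR adjusted p = 0.0392) and by 0.98 in MUTEPPP#3 (SE 0.190, adjusted p = 0.00532), and its value of 0.44 in MUTEv5#5 did not pass (interval 0.02 to 0.85, adjusted p = 0.284). The MUTEv5#2 call was lost in 9 of 21 alternatives, among them the omission of MUTE replicate 2 (0.998) or 3 (0.89), of any single MUTEv5#2 library, of MUTEv5#5 replicate 1 or 3 or of MUTEPPP#3 replicate 2.

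*MAM1* (AT5G23010), the neighbouring synthase for shorter chains, did not follow. Its log2 fold changes were -0.00 in MUTEv5#2, -0.51 in MUTEv5#5 and 0.24 in MUTEPPP#3, none called. Per kb, *MAM3* was at 0.331 to 0.409 of *MAM1* in the MUTE libraries and at 0.509 to 0.986 in the 9 libraries of the variant lines, so that the groups did not overlap. *BCAT4* (AT3G19710), which starts the elongation by removing the amino group of methionine, stood at 16.9, 34.3 and 23.9 CPM in MUTE, 36.1, 29.2 and 30.8 in MUTEv5#2, 18.02, 25.5 and 24.1 in MUTEv5#5 and 39.3, 47.6 and 34.0 in MUTEPPP#3. MUTEPPP#3 overlapped MUTE and lay above MUTEv5#5, where the difference was called (0.84, SE 0.234, adjusted p = 0.0362) but was lost without MUTEv5#2 replicate 2 (0.84), any single MUTEv5#5 library (0.70 to 0.97) or MUTEPPP#3 replicate 1 (0.86) or 2 (0.70). The overlapping gene AT3G19700 on the other strand may share its reads.

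The transporter gene *BASS5* (AT4G12030), which carries the oxo acids into the chloroplast, and the isomerase and dehydrogenase genes *IIL1* and *IMD1* were not called in any comparison. *IIL1* (AT4G13430), the most abundant elongation gene per kb, stood at 160, 216 and 195 CPM in MUTE, 213, 199 and 196 in MUTEv5#2, 158, 198 and 182 in MUTEv5#5 and 206, 244 and 208 in MUTEPPP#3. All variant lines overlapped with MUTE, and its fold changes over MUTE were -0.08 to 0.21 on the log2 scale. All 6 elongation genes had fold changes above 0 in MUTEPPP#3, where *BASS5* was at 0.02, and 5 of 6 in MUTEv5#2, and 2 of 6 in MUTEv5#5. Each of them had its lowest MUTE level in replicate 1, whose part in these signs was not tested.

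Core synthesis turns the amino acid into an aldoxime (CYP79 enzymes), oxidises it (CYP83), joins it to glutathione, and trims, glucosylates and sulfates the product. *CYP79F2* (AT1G16400, chromosome 1, 5605044 to 5607498, plus strand), which acts on long-chain methionine derivatives, stood at 7.79, 14.9 and 12.4 CPM in MUTE. It was at 27.1, 23.1 and 19.8 in MUTEv5#2, 10.1, 19.7 and 18.2 in MUTEv5#5 and 22.0, 24.4 and 18.8 in MUTEPPP#3. MUTEv5#2 and MUTEPPP#3 did not overlap with MUTE, and MUTEv5#5 replicate 1 lay within its range. *CYP79F2* rose in MUTEPPP#3 by a log2 fold change of 0.89 (SE 0.272, edgeR adjusted p = 0.0357), while the larger value in MUTEv5#2 missed the threshold (0.99, SE 0.273, adjusted p = 0.0600). The MUTEPPP#3 call was lost without MUTE replicate 1 (0.70) or 3, MUTEv5#2 replicate 2 or MUTEPPP#3 replicate 1 or 2, and when the fit held the compared groups alone.

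*CYP79F1* (AT1G16410) lies 1183 bases beyond *CYP79F2* and acts on short and long chains. It stood at 15.7, 27.8 and 17.8 CPM in MUTE, 20.1, 17.4 and 18.5 in MUTEv5#2, 6.32, 18.8 and 17.9 in MUTEv5#5 and 13.7, 22.9 and 10.7 in MUTEPPP#3, overlapping throughout. Per kb, *CYP79F2* was at 0.806 to 1.13 of *CYP79F1* in MUTE and at 1.65 to 2.85 in the 9 variant libraries. The pair shares 54 stretches of 50 bases, 2.89% of those of *CYP79F2* and 1.72% of those of *CYP79F1*, and reads from these could be counted for either. Because MUTE is a single line, a ratio that sets its libraries apart from the 9 others cannot be told apart from a trait of that line.

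*UGT74C1* (AT2G31790), an S-glucosyltransferase of the aliphatic branch, was lower in MUTEPPP#3 than in MUTE and MUTEv5#5. Its level was 76.8, 73.9 and 60.6 CPM in MUTE, 71.5, 73.3 and 56.0 in MUTEv5#2, 55.5, 75.2 and 72.4 in MUTEv5#5 and 45.7, 49.5 and 43.6 in MUTEPPP#3. All MUTEPPP#3 libraries lay below all others. The log2 fold change was -0.61 over MUTE (SE 0.143, adjusted p = 0.0126), a call kept in all 21 alternatives, and -0.55 over MUTEv5#5 (SE 0.143, adjusted p = 0.0283). The latter was lost without MUTEv5#5 replicate 2 (-0.44) or 3 (-0.48) or any single MUTEPPP#3 library (-0.60 to -0.51), with library totals as the scaling (-0.46) and when the fit held the compared groups alone (-0.54). Genes on the other strand overlap it (AT2G31800 and AT2G08470). *UGT74B1* (AT1G24100), the other S-glucosyltransferase, was at -0.06 in MUTEPPP#3 and was not called.

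*GSTU20* (AT1G78370), a glutathione S-transferase of the aliphatic branch and the most abundant core gene per kb, stood at 110, 196 and 162 CPM in MUTE, 163, 148 and 155 in MUTEv5#2, 89.3, 143 and 143 in MUTEv5#5 and 212, 226 and 170 in MUTEPPP#3. All variant lines overlapped with MUTE, and its fold changes over MUTE were -0.32 to 0.38 on the log2 scale. The remaining core genes, *CYP83A1*, *CYP83B1*, *CYP79B2*, *CYP79B3*, *SUR1*, *SOT16*, *SOT17*, *SOT18*, *GSTF11* and *GGP1*, were not called in any of the 6 comparisons. In MUTEv5#2 the sulfotransferase gene *SOT18* (0.52, adjusted p = 0.0735) and the C-S lyase gene *SUR1* (0.39, adjusted p = 0.124) came nearest, with libraries all above those of MUTE. *SOT18* overlaps AT1G74088 on the same strand. In MUTEv5#5 the tryptophan oxidase gene *CYP79B3* came nearest (-0.56, adjusted p = 0.229).

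Of the side chain genes, *FMOGS-OX1* (AT1G65860), which oxygenates the sulfur of the side chain, stood at 4.89, 5.41 and 5.61 CPM in MUTE, 5.71, 7.11 and 6.52 in MUTEv5#2, 3.11, 4.25 and 5.51 in MUTEv5#5 and 4.68, 6.75 and 3.78 in MUTEPPP#3. *AOP2* (AT4G03060), a locus whose enzyme makes alkenyl side chains in some accessions and which the reference annotation lists as a transcribed pseudogene, ranged from 0.873 to 4.01 CPM over the 12 libraries. MUTEv5#2 lay above MUTE for *FMOGS-OX1*, and otherwise the lines overlapped with MUTE for both genes. Neither was called in any comparison, and both had their lowest library in MUTEv5#5 replicate 1.

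GTR1 and GTR2 import glucosinolates into cells and load them into the phloem. *GTR1* (AT3G47960) stood at 49.6, 55.4 and 81.3 CPM in MUTE, 33.5, 27.0 and 64.2 in MUTEv5#2, 32.7, 43.7 and 51.9 in MUTEv5#5 and 23.8, 30.0 and 30.7 in MUTEPPP#3. MUTEPPP#3 lay below MUTE without overlap, and both MUTEv5 lines overlapped with MUTE. *GTR1* fell in MUTEPPP#3 by 1.14 on the log2 scale (SE 0.310, edgeR adjusted p = 0.0229). This call was lost without MUTE replicate 3 (-0.88) or MUTEPPP#3 replicate 1 or 2. *GTR2* (AT5G62680) stood at 52.7, 63.7 and 65.5 CPM in MUTE, 60.7, 67.3 and 72.2 in MUTEv5#2, 56.7, 62.2 and 72.6 in MUTEv5#5 and 64.4, 60.8 and 65.1 in MUTEPPP#3, with fold changes of 0.07 to 0.14. *GTR1* per kb was at 0.922 to 1.32 of *GTR2* in MUTE and at 0.392 to 0.523 in MUTEPPP#3. Genes on the other strand overlap both.

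**Figure D3:**
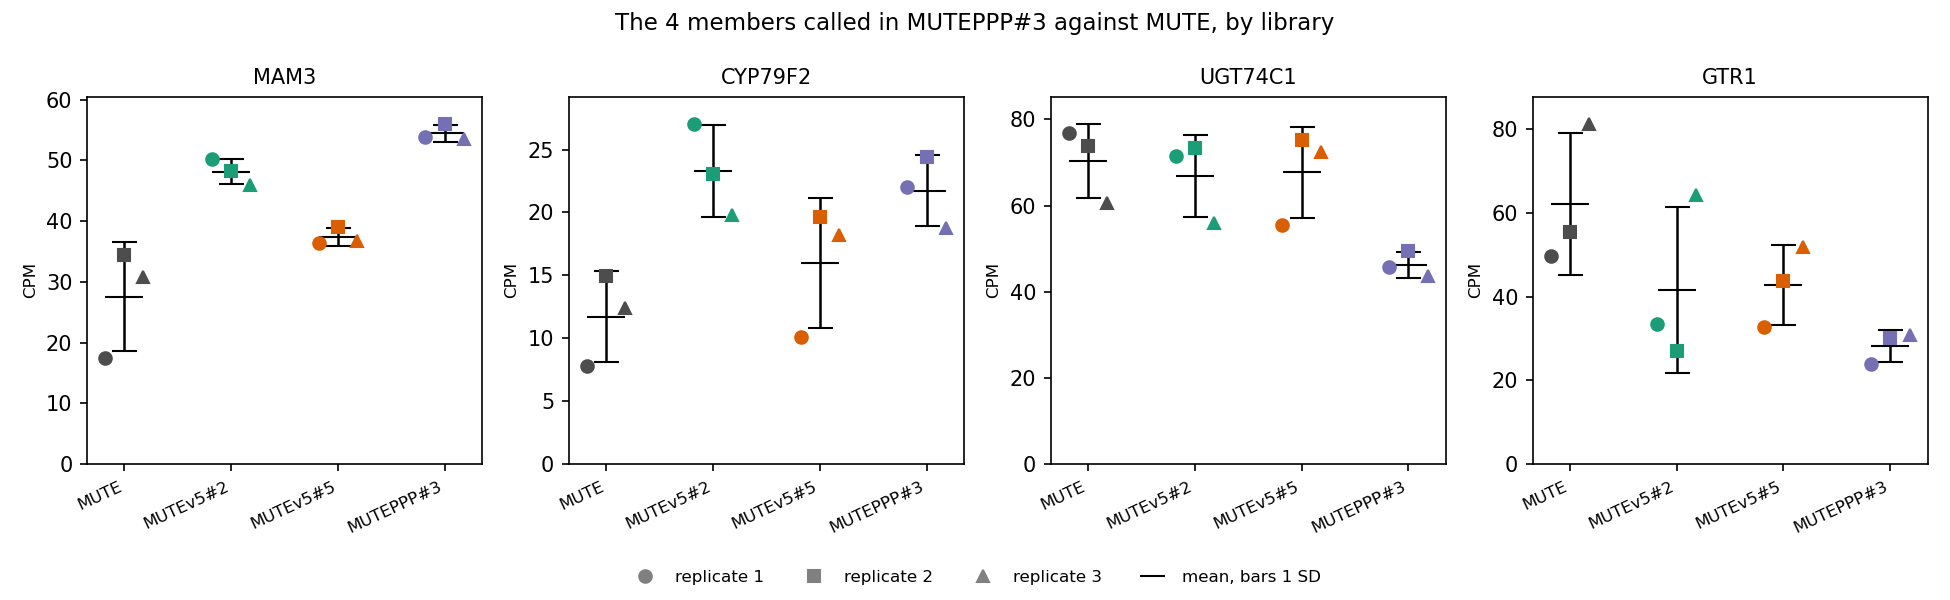
CPM in each library of the 4 genes called in MUTEPPP#3 against MUTE, with marker shape for the replicate, lines for the mean and bars of 1 SD (n = 3). All MUTEPPP#3 libraries lie above MUTE for *MAM3* and *CYP79F2* and below it for *UGT74C1* and *GTR1*; *MAM3* is above MUTE in the MUTEv5 lines as well.

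Among the other breakdown genes, ESP and the NSP proteins turn the myrosinase product into epithionitriles and nitriles, ESM1 acts against ESP, and PEN2 is an atypical myrosinase that acts on indolic compounds. *ESP* (AT1G54040) had the widest spread of the breakdown genes within each line. It stood at 4.35, 10.9 and 14.3 CPM in MUTE, 2.70, 1.99 and 6.74 in MUTEv5#2, 0.582, 1.49 and 2.92 in MUTEv5#5 and 11.3, 16.5 and 5.47 in MUTEPPP#3. MUTEv5#5 lay below MUTE and MUTEPPP#3 without overlap. *ESP* was 6.68 times as high in MUTEPPP#3 as in MUTEv5#5 (95% interval 2.32 to 19.2, adjusted p = 0.0250), a call lost without MUTEv5#5 replicate 1 or 2 or MUTEPPP#3 replicate 2, and its value over MUTE in MUTEv5#5 did not pass (log2 fold change -2.57, adjusted p = 0.106).

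*NSP1* (AT3G16400) was the second most abundant member per kb in MUTE, at 257 against 637 for *TGG1*. In MUTEv5#5 *TGG1*, at 218, and *NSP1*, at 227, were level within their spread. *NSP1* came nearest to a call in MUTEv5#2 (-0.37, adjusted p = 0.0588), and 28.2% of its 50-base stretches occur elsewhere in the genome, which makes its count uncertain, as do 24.9% for *ESM1*. *NSP5* was at -0.94 in MUTEPPP#3 (adjusted p = 0.0589), *ESM1* at 0.70 (adjusted p = 0.148) and *PEN2* at 0.08 (adjusted p = 0.874). None of these 4 was called in any comparison.

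In MUTE 26 of the 31 synthesis genes had their lowest level in replicate 1, as did 21 of the 23 enzymes and *BASS5*, and in MUTEv5#5 30 of 31 had it in replicate 1, with all 23 of the latter group. Of all genes tested, 40.8% were lowest in MUTE replicate 1 and 36.8% in MUTEv5#5 replicate 1. In MUTEv5#2 the synthesis genes were lowest 11, 9 and 11 times in replicates 1, 2 and 3, and in MUTEPPP#3 11, 2 and 18 times. Their median ratio of the highest to the lowest library was 1.53 in MUTE and 1.61 in MUTEv5#5, against 1.22 in MUTEv5#2 and 1.30 in MUTEPPP#3. In MUTE *TGG1* and *TGG2* were lowest in replicate 3. In MUTEv5#5 *TGG1* was lowest in replicate 3 and *TGG2*, like the synthesis genes, in replicate 1.

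**Figure D4:**
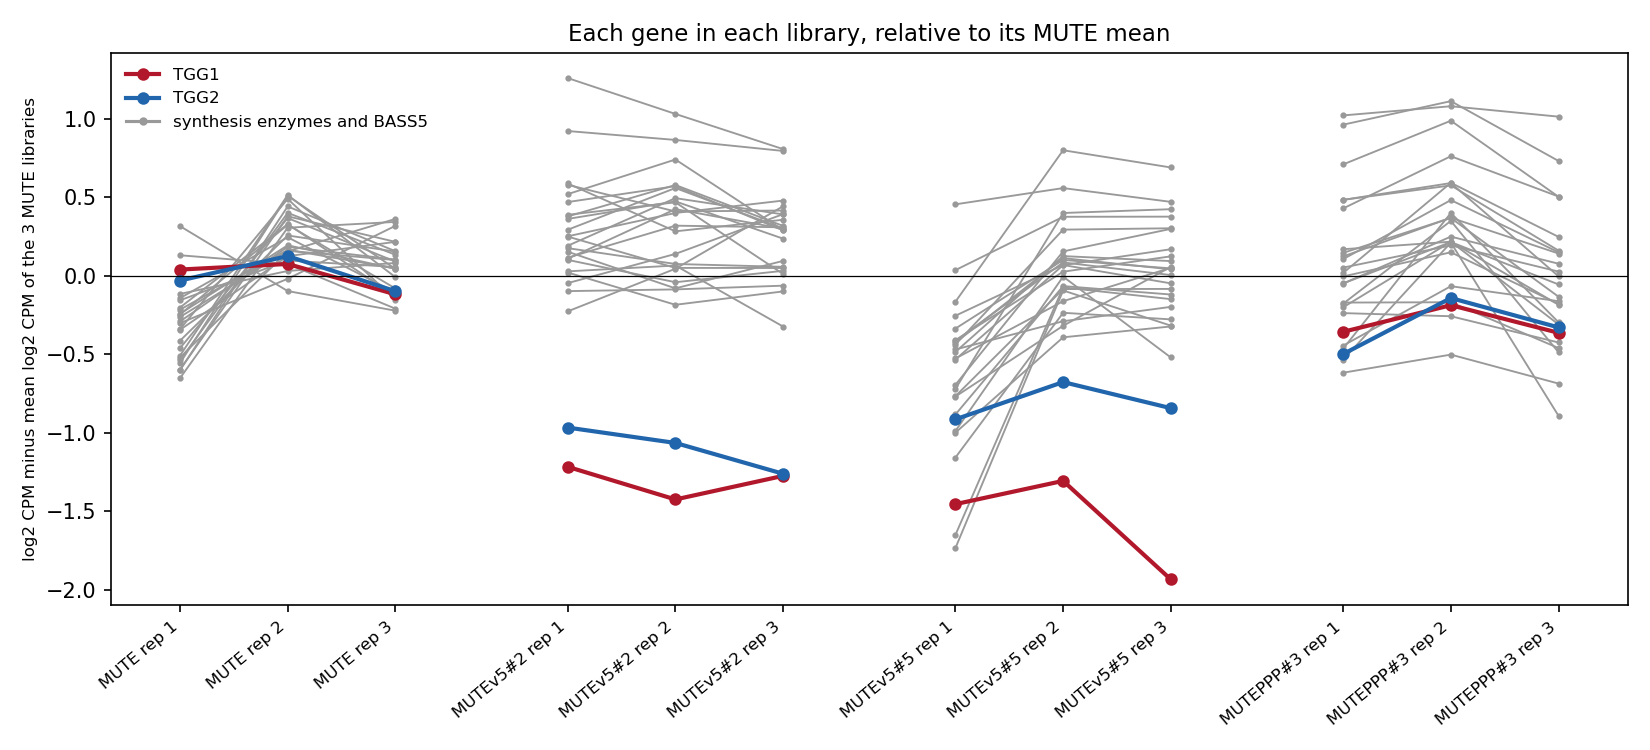
Log2 CPM of the 23 synthesis enzymes and *BASS5* (grey), *TGG1* (red) and *TGG2* (blue) in each library, minus the mean log2 CPM of the MUTE libraries; lines join the values of 1 gene within a line and imply no order. Most grey values are lowest in replicate 1 of MUTE (21 of 23 genes) and of MUTEv5#5 (23 of 23), while *TGG1* is lowest in replicate 3 of both lines and *TGG2* in replicate 3 of MUTE and replicate 1 of MUTEv5#5.

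The same libraries stood apart in genes of the circadian clock, a timer of daily gene expression. Summed over 6 morning genes (*CCA1*, *LHY*, *RVE1*, *RVE8*, *PRR7* and *PRR9*), MUTE replicate 1 had 971 CPM against 362 and 366 in replicates 2 and 3. MUTEv5#5 replicate 1 had 659 against 373 and 403. The genes did not all follow their sum, in which *LHY* alone held 492 CPM in MUTE replicate 1. *LHY*, *CCA1* and *RVE8* were highest in replicate 1 of both lines, while *PRR7* and *PRR9* were lowest there. *RVE1* was highest in replicate 1 of MUTE and lowest in that of MUTEv5#5. The sums were 245 to 280 in MUTEv5#2 and 147 to 168 in MUTEPPP#3, while 6 evening genes gave 183 to 638 in MUTEPPP#3 and 74.6 to 205 in MUTE. The part of this difference in the levels of the members was not tested. Without both replicate 1 libraries, a setting chosen after seeing the data, *TGG1* was still called lower in both MUTEv5 lines, *TGG2* in MUTEv5#5 was not (-0.78, adjusted p = 0.0824), and 8 members were called in MUTEPPP#3 against MUTE in place of 4.

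Glucosinolate synthesis draws on sulfate assimilation, and a list of 10 genes of sulfur supply was measured beside it. In MUTEPPP#3 6 of 10 were called lower than in MUTE, beside 13.9% of all genes. Of the 10, 9 had log2 fold changes below 0 there, with a median of -1.42. In both MUTEv5 lines all 10 were below 0, with medians of -0.36 in MUTEv5#2 and -0.45 in MUTEv5#5, and edgeR called none. Unadjusted p were under 0.05 there for 3 genes in MUTEv5#2 and 1 in MUTEv5#5, and DESeq2 called 3 lower in MUTEv5#2. The sulfur deficiency genes *LSU2* (-1.95), *LSU1* (-2.07) and *SDI1* (-2.73) and the reductase gene *APR2* (-1.37) were the most significant. *SDI1* is known to restrain glucosinolate synthesis by binding MYB28. The list's sum was 982 to 1125 CPM in MUTE, 749 to 887 in MUTEv5#2, 628 to 1025 in MUTEv5#5 and 467 to 663 in MUTEPPP#3. Whether it moves with *UGT74C1* and *GTR1* was not tested. The clock difference between these lines stands beside every call in MUTEPPP#3.

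Of 27 other synthesis genes tested, 1 was called in MUTEv5#2 (3.70%, beside 5.04% of all genes) and 5 in MUTEPPP#3 (18.5%, beside 24.6%), shares near those of all genes. *CYP81F3*, an indole glucosinolate hydroxylase, was higher in MUTEv5#2 (0.71, adjusted p = 0.0448), and none was called in MUTEv5#5, where edgeR's adjusted p were 0.143 or more and 2 genes had an unadjusted p under 0.05. In MUTEPPP#3 the methyltransferase gene *IGMT5* (1.55) and the glutathione transferase gene *GSTF9* (0.65) were higher, and *FMOGS-OX2* (-1.36), the transporter gene *GTR3* (-0.29) and *MYC4* (-0.51), a bHLH partner of the MYB regulators, were lower. Of 16 other breakdown genes, *BGLU30* was lower in MUTEv5#2 (-0.90, adjusted p = 0.0466) and the myrosinase-binding protein gene *MBP2* in MUTEv5#5 (-2.78, adjusted p = 0.0295, at 0.0388 to 0.161 CPM). Each was the only call in its line (6.25% of the list), beside 5.04% and 1.04% of all genes. None was called in MUTEPPP#3, beside 24.6% of all genes. The root myrosinases *TGG4* and *TGG5*, which share 287 stretches of 50 bases, were not called. Of 8 jasmonate genes, whose hormone induces glucosinolate synthesis, *LOX2* was lower in MUTEv5#2 (-1.28) and MUTEv5#5 (-1.82) and *JAZ9* in MUTEPPP#3 (-2.35). That is 12.5% of the list in each line, beside 5.04%, 1.04% and 24.6% of all genes.

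The variant lines were also compared with each other. Between the MUTEv5 lines no member was called by edgeR or by DESeq2, beside 0.0663% of all genes (0.0177% higher and 0.0486% lower in MUTEv5#5). At an unadjusted p under 0.05 there were 11 members, 1 higher and 10 lower in MUTEv5#5, beside 10.8% of all genes. The higher one was *TGG2*, and *CYP79B2*, *CYP79B3*, *SUR1* and *SOT16* were among the lower. The synthesis genes had a median log2 fold change of -0.37 there, with 26 of 31 below 0. Replicate 1 of MUTEv5#5 was the lowest of its line for 30 of these 31, and its part in this difference was not tested. MUTEPPP#3 against MUTEv5#2 gave *TGG1* and *TGG2*, both higher, beside 2.47% of all genes (1.06% higher and 1.40% lower). MUTEPPP#3 against MUTEv5#5 gave 6 members beside 15.7% of all genes (6.32% higher and 9.38% lower): *TGG1*, *TGG2*, *ESP*, *MYB34* and *BCAT4* were higher and *UGT74C1* was lower.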

How the data were processed

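Reads came from a stranded mRNA kit, and the submitters' processing notes name the TAIR10 genome, the aligners HISAT2 2.1.0 and Bowtie2 2.3.4.1, the assembler StringTie 2.1.3b, the trimmer Trimmomatic 0.38, FastQC and DESeq2, without their order or settings and with no strand setting. The authors deposited whole-number counts per gene for 12 libraries, with no normalization, and the lowest value in the table is 1, not 0. Of 23098 entries, 27 name no gene (at most 0.000596% of a library's counts) and were left out. Counts were scaled by TMM and filtered with filterByExpr, which left 22636 genes (435 left out). They were fitted in edgeR 4.0.16 (R 4.3.3, limma 3.58.1) as 4 group means over all 12 libraries. P-values of the quasi-likelihood test were adjusted by Benjamini-Hochberg within each of 6 comparisons, with a threshold of 0.05. The common coefficient of biological variation was 0.215, and 1 count was worth at most 0.00915 CPM. CPM per kb uses RefSeq TAIR10.1 exon lengths. The labels do not say whether a line's libraries came from separately grown batches, so p-values measure the spread between these libraries. Deviations from the group means of same-numbered libraries correlated at 0.323 to 0.574 between MUTE and MUTEv5#5, and at 0.1 or less for at least 1 number between other lines. A pairing of MUTE with MUTEv5#5 rests on these data alone. The main p-values and intervals did not use it, and only the replicate block, an alternative, used the library numbers. The fit was tested on simulated data with 200 changed genes. Alternatives were other scalings and filters, 1 subtracted from each count, a replicate block, DESeq2 1.42.0, only the compared groups, and each library left out. The genes and lists were chosen with earlier results of these data known. Named with values in every library were *TGG1*, *TGG2*, *FAMA*, each member called in any comparison, and the most abundant member per kb of each role, with a few near copies added.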

Additional observations from a re-analysis of the deposited data

How the results depend on the processing

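*TGG1* kept its call in both MUTEv5 lines against MUTE, and *TGG2* in MUTEv5#2, under all 21 alternatives. *TGG2* in MUTEv5#5 lost its call when the fit held the compared groups alone (-0.80, adjusted p = 0.0702) and without both replicate 1 libraries (-0.78), and ran from -0.89 to -0.75 with 1 library left out. The number of members called was 6 in MUTEv5#2 against MUTE with library totals, DESeq2 or the replicate block, in place of 3. It was 1 in MUTEv5#5 against MUTE with only the compared groups or without both replicate 1 libraries, in place of 2. In MUTEPPP#3 against MUTE it was 8 with library totals, DESeq2, the replicate block or without both replicate 1 libraries, in place of 4. In MUTEPPP#3 against MUTEv5#2 it was 4 with the replicate block, 5 with DESeq2, 1 with only the compared groups and 5 without both replicate 1 libraries, in place of 2, and against MUTEv5#5 it was 11 with DESeq2, in place of 6. With 1 library left out the counts were 2 to 3, 1 to 2, 2 to 6, 0, 0 to 2 and 1 to 9 in the order of the comparisons above, the fourth being that between the MUTEv5 lines. The replicate block brought *TGG2* in MUTEPPP#3 against MUTE past the threshold (-0.32, adjusted p = 0.0375). Over the 4 lines same-numbered libraries correlated at -0.166 to 0.574, with every pair over 0.1 only between MUTE and MUTEv5#5, where the replicate block changed no member's call, and 9 of 12 libraries correlated best with their own number. Of 273 alternatives for the other single genes, 222 kept the call, 51 lost it and none changed direction. DESeq2 called 1022 genes higher and 1639 lower in MUTEv5#2, 471 and 685 in MUTEv5#5 and 3250 and 3702 in MUTEPPP#3 against MUTE. The causes of these changes were not tested.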
